A study of Mus musculus with 92 samples.

Results

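In mouse embryonic stem cells, 33 genes of cholesterol and fatty acid synthesis and of their control were followed after degradation of the transcription factor GABP, out of 56953 gene IDs in the tables. The rule took them by name, for their known functions, and the list was chosen with earlier results of these data known. The mevalonate arm held 7 (Acat2, Hmgcs1, Mvk, Pmvk, Mvd, Idi1 and Fdps). The arm from squalene to cholesterol held 11 (Fdft1, Sqle, Lss, Cyp51, Tm7sf2, Msmo1, Nsdhl, Hsd17b7, Ebp, Sc5d and Dhcr7). SREBP control and sterol transport held 6 (Srebf1, Srebf2, Scap, Insig1, Insig2 and Stard4), and the fatty acid arm held 9 (Acly, Acss2, Acaca, Fasn, Elovl6, Scd1, Scd2, Fads1 and Fads2). All 33 passed the filter on low counts, which left 16396 genes in RNA-seq and 15887 in SLAM-seq.

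Cells build cholesterol from acetyl-CoA through mevalonate, farnesyl pyrophosphate, squalene and lanosterol, and they build fatty acids from the same acetyl-CoA. When sterol in the endoplasmic reticulum runs low, SCAP carries the SREBP proteins to the Golgi, where they are cleaved, and the freed part enters the nucleus and switches on genes of both routes, often beside the factor NF-Y. INSIG proteins hold SCAP back when sterol is plentiful. GABP is a complex of GABPA, an ETS protein that binds DNA, with GABPB1 or GABPB2, which lack an ETS domain and carry the activating part.

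The study asked what GABPA does in the control of gene expression, and lines for its GABPB partners stand beside it. Cells of the B6 line carried a degradation tag on both alleles of the targeted gene, and the small molecule dTAG-13 marks a tagged protein for destruction. RNA-seq of polyA RNA covered cells of genotype GabpadTAG/dTAG, Gabpb1/b2dTAG/dTAG and Gabpb1dTAG/dTAG, called here the GABPA, GABPB1/GABPB2 and GABPB1 lines, each given 500 nM dTAG-13 or DMSO for 12 h. SLAM-seq covered the GABPA line after 1, 2, 4 and 12 h of 500 nM dTAG-13, with DMSO cells for 1, 2 and 12 h. In SLAM-seq, 500 µM 4-thiouridine was fed to the cells, so that RNA made during labelling carries T-to-C changes in its reads. The labels do not give the length of labelling. DMSO cells carried the same tags, and every group grew with serum, LIF, PD0325901 and CHIR99021. Each group had 2 libraries, described as biological duplicates, and the labels give no number of clones per line. No untagged cells given dTAG-13 were analysed here.

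Depth lay between 16.0 and 32.1 M counts in RNA-seq (M for mega) and between 11.5 and 30.7 M reads in SLAM-seq, and 5.06% to 14.1% of those SLAM-seq reads carried conversions. All 12 embryonic stem cell markers were detected, with a summed level of 11184 to 12772 TPM (transcripts scaled to a common library total, per length) over libraries, against 3.29 to 8.86 TPM for 10 fibroblast markers, of which Lum was at 0 throughout. Summed over 10 markers each, primitive endoderm and trophoblast reached 16.0 to 99.2 TPM, and neural and mesendoderm 60.3 to 130.5 TPM. A single gene had most of each sum on average over libraries. In the first list Tfap2c had a mean of 42.4 TPM, and 7 of the 10 genes had means under 1 TPM. In the second Tubb3 had a mean of 76.6 TPM, and 5 of the 10 had means under 1 TPM. The sums of these lists given below therefore weigh Tfap2c and Tubb3 most and give no share of differentiated cells. Gabpa mRNA was at 64.6 and 70.0 CPM (counts scaled to a common library size after TMM normalisation) after dTAG-13 and at 48.9 and 46.4 CPM in DMSO in the GABPA line. Because the tag acts on the protein, mRNA does not check its loss.

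After 12 h of dTAG-13 in the GABPA line, mRNA of 29 of the 33 genes rose and 1 fell, and the rises reached into every arm. Over all genes tested, 24.6% rose and 21.9% fell, 46.5% in either direction. The median log2 fold change was 0.65 over the 33 genes and 0.06 over all genes. All 7 genes of the mevalonate arm rose, with a median of 0.56, as did 10 of 11 from squalene to cholesterol, with a median of 0.76. Of the SREBP control and transport genes 5 of 6 rose, and of the fatty acid arm 7 of 9. In 29 genes both dTAG-13 libraries were above both DMSO libraries, which 38.6% of all genes showed, and in 1 both were below, which 31.8% showed. All SLAM-seq reads of this line at 12 h, converted or not, gave a different count, with 7 genes higher and 9 lower. Over all genes 29.8% and 27.6% did so there, as described below. Fold changes below are log2 values ± SE, and each adjusted p comes from the quasi-likelihood test of edgeR, adjusted by Benjamini and Hochberg's method across the whole assay. In these cultures, a smaller number of cells of one kind and less RNA per cell cannot be told apart.

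**Figure D1:**
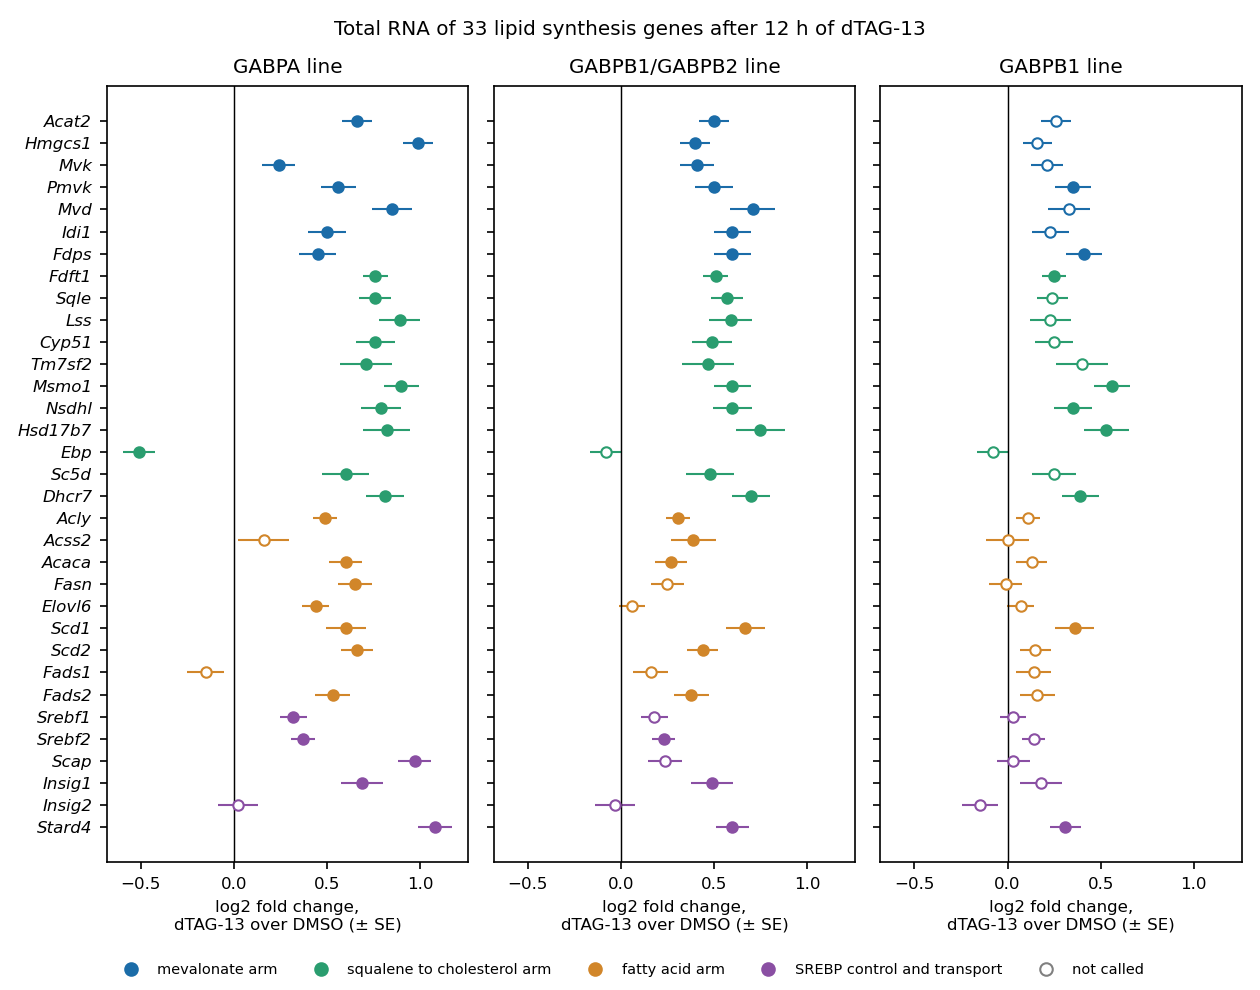
Log2 fold change after 12 h of dTAG-13 over DMSO in total RNA for the 33 genes, with a panel each for the GABPA, GABPB1/GABPB2 and GABPB1 lines, points coloured by arm, bars ± SE and filled points where the gene passed the test. Filled points number 30 for GABPA, 26 for GABPB1/GABPB2 and 9 for GABPB1, and Ebp is the filled point below 0.

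In the mevalonate arm, Hmgcs1 encodes the synthase that makes HMG-CoA. It was at 405 and 467 CPM after dTAG-13 and at 225 and 214 CPM in DMSO (log2 fold change 0.99 ± 0.0803, adjusted p = 2.43e-08). Acat2, the cytosolic thiolase that joins acetyl-CoA units, was at 197 and 219.7 CPM after dTAG-13 and 122 and 142 CPM in DMSO (log2 fold change 0.66 ± 0.0796, adjusted p = 3.12e-06). In neither gene did the 2 groups overlap. Mvk, mevalonate kinase, changed least among the genes that rose, at 41.7 and 43.0 CPM after dTAG-13 and 36.6 and 35.3 CPM in DMSO (log2 fold change 0.24 ± 0.0888, adjusted p = 0.0376). Its groups did not overlap, yet the call was lost when any of the 4 libraries was left out, with adjusted p of 0.0755 to 0.175, and under DESeq2, with adjusted p of 0.0617.

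From squalene to cholesterol, Fdft1 encodes squalene synthase, the first step committed to sterols. It was at 179.6 and 194 CPM after dTAG-13 and 107 and 115 CPM in DMSO (log2 fold change 0.76 ± 0.0668, adjusted p = 7.05e-08). Sqle, squalene epoxidase, was at 181 and 214 CPM after dTAG-13 and 109 and 124 CPM in DMSO (log2 fold change 0.76 ± 0.0855, adjusted p = 1.26e-06). Both genes kept their groups apart. Msmo1, which takes part in removing the methyl groups of lanosterol, was at 168 and 214 CPM after dTAG-13 and 96.8 and 108 CPM in DMSO (log2 fold change 0.90 ± 0.0928, adjusted p = 4.44e-07). Dhcr7, which makes cholesterol from its direct precursor 7-dehydrocholesterol, was at 159 and 171 CPM after dTAG-13 and 83.2 and 105 CPM in DMSO (log2 fold change 0.81 ± 0.101, adjusted p = 4.07e-06). The second library of dTAG-13 was the higher one in each of the 4. Fdft1 shares 774 bases with Ctsb on the opposite strand, and how the counting treated strand is unknown here.

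Ebp, the sterol isomerase of the same arm, went the other way. Its mRNA was at 41.5 and 46.9 CPM after dTAG-13 and 59.1 and 66.9 CPM in DMSO (log2 fold change -0.51 ± 0.0843, adjusted p = 8.77e-05), with both dTAG-13 libraries below both DMSO libraries. Ebp lies on the X chromosome (mm39 chrX:8051568-8059751, minus strand). The other genes of this arm, Lss, Cyp51, Tm7sf2, Nsdhl, Hsd17b7 and Sc5d, rose by 0.60 to 0.89.

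Among the control genes, Scap moved most, with 167 and 136 CPM after dTAG-13 and 77.3 and 77.3 CPM in DMSO (log2 fold change 0.97 ± 0.0891, adjusted p = 1.13e-07). Insig1, itself a known SREBP target, was at 170.1 and 230.0 CPM after dTAG-13 and 117 and 131 CPM in DMSO (log2 fold change 0.69 ± 0.113, adjusted p = 8.49e-05). Neither gene's groups overlapped. Srebf2, which encodes the SREBP that favours sterol genes, was at 469 and 486 CPM after dTAG-13 and 347 and 395 CPM in DMSO (log2 fold change 0.37 ± 0.063, adjusted p = 0.00014). Srebf1, whose protein favours fatty acid genes, was at 122 and 124 CPM after dTAG-13 and 90.6 and 106 CPM in DMSO (log2 fold change 0.32 ± 0.0725, adjusted p = 0.00174). Both SREBP genes rose without overlap, by less than the median of the 33 genes. Insig2 was at 19.0 and 17.3 CPM after dTAG-13 and 18.6 and 17.2 CPM in DMSO (log2 fold change 0.02 ± 0.107, adjusted p = 0.921), and its groups overlapped. Stard4, which carries cholesterol between membranes, had the largest log2 fold change of the 33, with 50.05 and 57.1 CPM after dTAG-13 and 24.1 and 26.5 CPM in DMSO (log2 fold change 1.08 ± 0.091, adjusted p = 3.88e-08).

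In the fatty acid arm, Fasn, which encodes fatty acid synthase, was at 1068 and 1167 CPM after dTAG-13 and 634 and 788 CPM in DMSO (log2 fold change 0.65 ± 0.0891, adjusted p = 1.25e-05). Acly, Acaca, Elovl6, Scd1, Scd2 and Fads2 also rose, by 0.44 to 0.66. These encode, in turn, the enzyme that makes cytosolic acetyl-CoA from citrate, the carboxylase that makes malonyl-CoA, an elongase, a pair of stearoyl-CoA desaturases and a desaturase of polyunsaturated fatty acids. Scd1 and Scd2 are close in sequence, so reads may be split between them. Fads1 (-0.15 ± 0.0994, adjusted p = 0.233) and Acss2, which makes acetyl-CoA from acetate (0.16 ± 0.138, adjusted p = 0.378), did not pass the test. Acss2 overlaps Gss on the opposite strand over 22544 bases.

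Summed per length, the 33 genes reached 2634 and 3039 TPM after dTAG-13 and 1788 and 1993 TPM in DMSO in the GABPA line. In DMSO the highest mean levels were those of Acly at 195 TPM, Fdps at 188 TPM and Scd2 at 149 TPM, and the lowest was that of Acss2 at 3.48 TPM. In the same libraries the summed neural and mesendoderm markers were at 77.2 to 78.4 TPM after dTAG-13 and 114.8 to 119.5 TPM in DMSO, and 4 of 7 tested fell. The primitive endoderm and trophoblast markers summed to 21.4 to 24.5 TPM after dTAG-13 and 16.0 to 18.2 TPM in DMSO, with 3 of 9 tested higher and 1 lower. Of the stem cell markers, 4 of 12 rose and 2 fell. The part of these changes in the results was not tested.

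**Figure D2:**
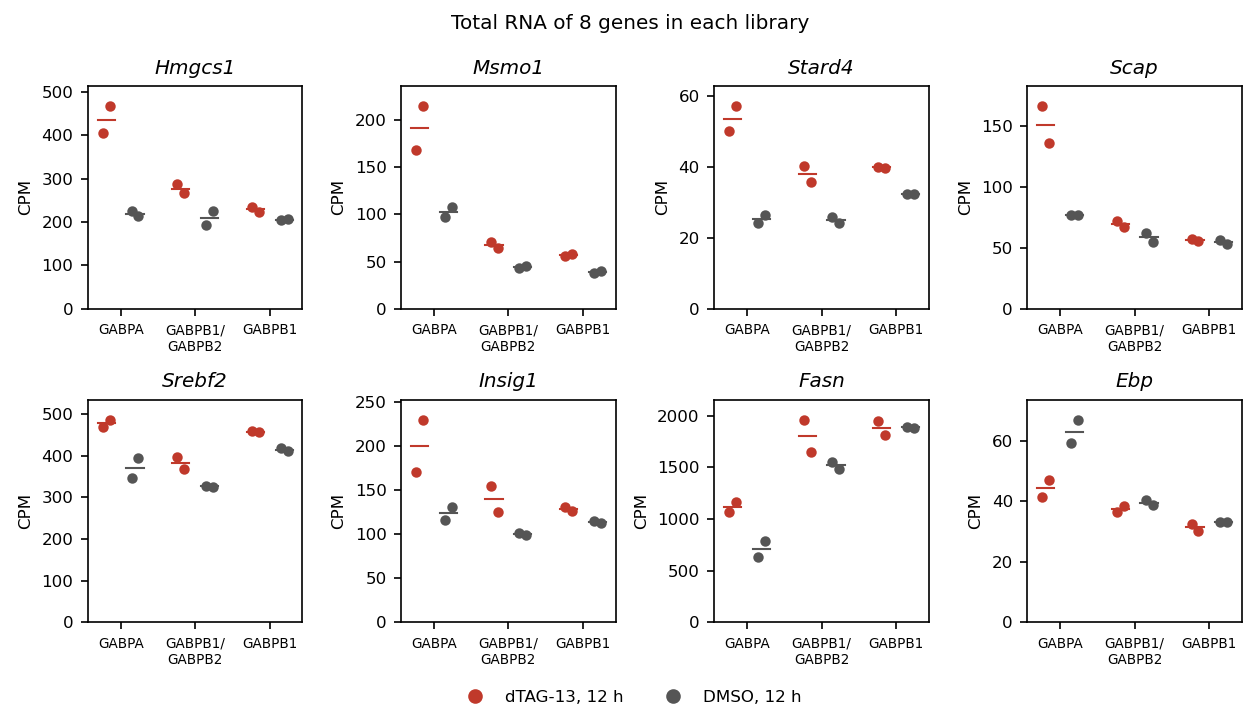
CPM in each RNA-seq library for Hmgcs1, Msmo1, Stard4, Scap, Srebf2, Insig1, Fasn and Ebp, with dTAG-13 points in red to the left of DMSO points in grey for each line and short lines at the group means. Scap at 167 and 136 CPM after dTAG-13 stands above 77.3 and 77.3 CPM in DMSO in the GABPA line, while Fasn in DMSO is lowest in the GABPA line.

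Promoter windows of 300 bases, 250 before and 50 after the start of the gene, were found in RefSeq (GRCm38.p6) for 26 of the 33 genes, in 34 windows. Those of Stard4, Scd1, Sqle, Fdft1, Fads1, Fdps and Scd2 were not among them. Each was searched on both strands for CCGGAAG, an ETS core with the flank known for GABP, for TCACNCCAC, a form of the sterol element bound by SREBP, and for CCAAT, the box bound by NF-Y. CCGGAAG was found for 4 of the 26 genes (15.4%; Acss2, Dhcr7, Hmgcs1 and Insig2), against 9.93% of 27025 genes. TCACNCCAC was found for 1 (3.85%; Hmgcs1), against 1.44% of all genes, and CCAAT for 21 (80.8%), against 41.1%. A match describes letters in the window and is not a bound site.

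The 6 windows below show an enzyme gene that held all 3 motifs, one with 5 CCAAT boxes, one that rose in all 3 lines, the gene that fell, a gene with CCGGAAG that did not pass the test in total RNA, and a control gene that held none of the 3. Capitals mark the motifs on either strand (CCGGAAG or CTTCCGG, TCACCCCAC, and CCAAT or ATTGG). Coordinates are GRCm38.p6 and the sequence runs 5′ to 3′ on the gene's strand.
Hmgcs1 (chr13:119690101-119690400, plus): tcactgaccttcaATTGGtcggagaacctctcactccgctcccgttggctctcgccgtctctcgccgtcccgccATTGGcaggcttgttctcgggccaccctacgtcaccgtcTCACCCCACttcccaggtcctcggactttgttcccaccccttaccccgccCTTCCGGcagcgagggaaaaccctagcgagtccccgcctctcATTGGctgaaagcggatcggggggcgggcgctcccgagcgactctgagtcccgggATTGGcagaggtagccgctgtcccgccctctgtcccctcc
Mvk (chr5:114444019-114444318, plus): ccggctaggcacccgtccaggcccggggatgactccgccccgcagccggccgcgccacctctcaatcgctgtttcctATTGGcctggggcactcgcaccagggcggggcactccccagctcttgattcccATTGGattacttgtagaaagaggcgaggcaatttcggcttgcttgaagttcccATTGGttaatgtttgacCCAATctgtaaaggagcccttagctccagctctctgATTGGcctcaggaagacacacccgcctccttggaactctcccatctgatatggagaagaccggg
Msmo1 (chr8:64733529-64733828, minus): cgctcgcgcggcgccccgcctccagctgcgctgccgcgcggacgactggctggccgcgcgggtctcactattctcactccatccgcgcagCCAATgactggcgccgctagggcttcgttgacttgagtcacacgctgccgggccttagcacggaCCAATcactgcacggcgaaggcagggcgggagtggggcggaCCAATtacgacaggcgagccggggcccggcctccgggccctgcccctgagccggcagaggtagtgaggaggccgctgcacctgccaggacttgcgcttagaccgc
Ebp (chrX:8193463-8193762, minus): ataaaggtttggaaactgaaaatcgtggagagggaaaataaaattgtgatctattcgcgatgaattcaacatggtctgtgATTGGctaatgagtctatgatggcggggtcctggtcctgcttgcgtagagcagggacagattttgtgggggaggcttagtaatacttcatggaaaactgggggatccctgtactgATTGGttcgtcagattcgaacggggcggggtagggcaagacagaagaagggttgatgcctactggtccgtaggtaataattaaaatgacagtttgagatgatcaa
Insig2 (chr1:121327629-121327928, minus): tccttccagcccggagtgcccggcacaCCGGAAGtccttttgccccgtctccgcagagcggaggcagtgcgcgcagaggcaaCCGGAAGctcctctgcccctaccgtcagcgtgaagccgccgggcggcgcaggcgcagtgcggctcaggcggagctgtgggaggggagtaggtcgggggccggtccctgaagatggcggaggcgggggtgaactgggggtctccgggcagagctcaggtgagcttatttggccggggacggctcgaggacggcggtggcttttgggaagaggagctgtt
Scap (chr9:110333038-110333337, plus): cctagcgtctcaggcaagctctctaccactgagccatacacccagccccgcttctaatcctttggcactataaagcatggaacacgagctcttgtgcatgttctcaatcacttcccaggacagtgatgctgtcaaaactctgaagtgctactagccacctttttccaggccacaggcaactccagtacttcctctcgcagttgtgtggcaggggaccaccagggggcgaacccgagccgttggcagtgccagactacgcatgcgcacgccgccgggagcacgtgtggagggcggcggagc

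The values of 5 of these genes are given as picked examples, and a relation between motifs and response was not tested over the 26 genes. Hmgcs1 and Scap, with all and with none of these letters, had log2 fold changes of 0.99 and 0.97 in total RNA of the GABPA line. Ebp, with 2 CCAAT boxes, fell by 0.51, and Mvk, with 5, rose by 0.24. Insig2 had 2 copies of CCGGAAG in the window shown, 3 CCAAT boxes in another and none of the motifs in a further one. Its value was 0.02 in total RNA and -0.82 in new RNA at 12 h, as described below.

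After 12 h of dTAG-13 in the GABPB1/GABPB2 line, 26 of the 33 genes rose and 0 fell. Over all genes 3.53% rose and 9.26% fell (12.8% either way), and the medians were 0.48 over the 33 genes and 0.01 over all genes. All 7 genes of the mevalonate arm rose (median 0.50), 10 of 11 from squalene to cholesterol (0.57), 3 of 6 for control and transport (0.24) and 6 of 9 of the fatty acid arm (0.31). At an unadjusted p under 0.05, edgeR called 29 higher and 0 lower. After adjustment DESeq2 called 26 higher and 0 lower, beside 617 higher and 1313 lower of all 16396 genes. The share of all genes at an unadjusted p under 0.05 was not worked out, here or in any comparison below. The shares of adjusted calls are not a background for the unadjusted counts. Both dTAG-13 libraries were above both DMSO libraries in 29 genes, which 24.4% of all genes showed.

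In that line Fdft1 was at 179.8 and 165 CPM after dTAG-13 and 122 and 121 CPM in DMSO (log2 fold change 0.51 ± 0.0659, adjusted p = 4.07e-05). Dhcr7 was at 103 and 84.7 CPM after dTAG-13 and 60.8 and 54.4 CPM in DMSO (log2 fold change 0.70 ± 0.103, adjusted p = 0.000139). Stard4 was at 40.3 and 35.6 CPM after dTAG-13 and 25.9 and 24.1 CPM in DMSO (log2 fold change 0.60 ± 0.0904, adjusted p = 0.000176). In all 3 the groups stood apart. Sqle was at 145 and 126 CPM after dTAG-13 and 90.1 and 93.0 CPM in DMSO (log2 fold change 0.57 ± 0.0861, adjusted p = 0.000192), and Acat2 at 149.9 and 134 CPM after dTAG-13 and 101 and 98.8 CPM in DMSO (log2 fold change 0.50 ± 0.0802, adjusted p = 0.000301). Scd1, a desaturase that makes monounsaturated fatty acids, was at 198 and 174 CPM after dTAG-13 and 113 and 120.2 CPM in DMSO (log2 fold change 0.67 ± 0.107, adjusted p = 0.000308). Fdps, farnesyl pyrophosphate synthase, was at 235 and 204 CPM after dTAG-13 and 152 and 137 CPM in DMSO (log2 fold change 0.60 ± 0.0972, adjusted p = 0.00034), with near-identical copies elsewhere in the genome that could take some of its reads.

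The control genes of the GABPB1/GABPB2 line split. Insig1 was at 155 and 125 CPM after dTAG-13 and 101 and 98.7 CPM in DMSO (log2 fold change 0.49 ± 0.114, adjusted p = 0.00734), and Srebf2 at 397 and 369 CPM after dTAG-13 and 327 and 325 CPM in DMSO (log2 fold change 0.23 ± 0.063, adjusted p = 0.0213). Both rose without overlap. Scap was at 72.2 and 66.9 CPM after dTAG-13 and 62.6 and 55.1 CPM in DMSO (log2 fold change 0.24 ± 0.0913, adjusted p = 0.103), Srebf1 at 122 and 121 CPM after dTAG-13 and 110.3 and 104 CPM in DMSO (log2 fold change 0.18 ± 0.0714, adjusted p = 0.122), and Insig2 at 14.5 and 16.2 CPM after dTAG-13 and 14.6 and 16.7 CPM in DMSO (log2 fold change -0.03 ± 0.107, adjusted p = 0.917). None of these 3 passed the test, although for Scap and Srebf1 the groups did not overlap. Without the first dTAG-13 library, 15 of the 33 genes rose, and among the genes that then missed the threshold were Insig1 (adjusted p = 0.151) and Srebf2 (adjusted p = 0.218). That library was the higher of the pair for each gene given here except Insig2, and fewer of all genes rose without it as well. The primitive endoderm and trophoblast markers summed to 42.1 to 46.1 TPM after dTAG-13 and 31.2 to 32.5 TPM in DMSO, with 1 of 9 tested higher. The neural and mesendoderm markers summed to 60.3 to 64.5 TPM after dTAG-13 and 70.0 to 73.1 TPM in DMSO, with 1 of 7 tested lower, and the part of both in the result was not tested.

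After 12 h of dTAG-13 in the GABPB1 line, 9 of the 33 genes rose and 0 fell, against 1.28% and 5.46% of all genes, or 6.75% either way. The medians were 0.23 over the 33 genes and -0.01 over all genes. The genes that rose were Pmvk and Fdps of the mevalonate arm, Fdft1, Msmo1, Nsdhl, Hsd17b7 and Dhcr7 of the next, Stard4 and Scd1. At an unadjusted p under 0.05, edgeR called 18 higher and 0 lower, with no share of all genes at that threshold to set beside them. DESeq2 called 12 higher and 0 lower after adjustment, beside 208 higher and 743 lower of all 16396 genes. In 27 genes both dTAG-13 libraries were above both DMSO libraries, which 27% of all genes showed, and in 2 both were below, which 30.7% showed.

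Msmo1 had the lowest adjusted p of the 33 in the GABPB1 line, with 56.3 and 57.9 CPM after dTAG-13 and 37.9 and 39.5 CPM in DMSO (log2 fold change 0.56 ± 0.0964, adjusted p = 0.00155). Hsd17b7, the ketosteroid reductase of lanosterol demethylation, was at 13.6 and 13.1 CPM after dTAG-13 and 9.56 and 8.86 CPM in DMSO (log2 fold change 0.53 ± 0.121, adjusted p = 0.0114). Fdps was at 199.8 and 195 CPM after dTAG-13 and 145 and 153 CPM in DMSO (log2 fold change 0.41 ± 0.0957, adjusted p = 0.0137). The groups stood apart in all 3. Of the control genes, Srebf2 was at 458 and 457 CPM after dTAG-13 and 418 and 410.3 CPM in DMSO (log2 fold change 0.14 ± 0.0623, adjusted p = 0.211), Insig1 at 131 and 127 CPM after dTAG-13 and 115 and 113 CPM in DMSO (log2 fold change 0.18 ± 0.111, adjusted p = 0.422), and Scap at 57.5 and 55.4 CPM after dTAG-13 and 57.0 and 53.3 CPM in DMSO (log2 fold change 0.03 ± 0.0891, adjusted p = 0.897). Srebf1 was at 137 and 141 CPM after dTAG-13 and 139 and 133 CPM in DMSO (log2 fold change 0.03 ± 0.0692, adjusted p = 0.888), and Insig2 at 16.7 and 16.4 CPM after dTAG-13 and 17.5 and 19.2 CPM in DMSO (log2 fold change -0.15 ± 0.0971, adjusted p = 0.443). None of the 5 passed the test, although both dTAG-13 libraries were above both DMSO libraries for Srebf2 and Insig1 and below them for Insig2.

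The count in the GABPB1 line changed with the libraries and genes in the fit, and the cause was not tested. Leaving out any of its 4 libraries left Msmo1 as the only call, so that 8 of the 9 were lost. With these 4 libraries fitted alone, 26 genes rose, and without the filter on low counts 14 rose. Over all genes, 1240 of 15696 rose with the libraries alone and 278 of 30622 without the filter, against 210 of 16396 in the full fit. Calls that rose were thus more common over all genes as well with the libraries alone. The primitive endoderm and trophoblast markers summed to 90.4 to 99.2 TPM after dTAG-13 and 78.8 to 80.4 TPM in DMSO in this line, with 0 of 9 tested called by edgeR. The neural and mesendoderm markers summed to 100.6 to 108.6 TPM after dTAG-13 and 129.6 to 130.5 TPM in DMSO, with 2 of 7 tested lower, and the part of both in the result was not tested.

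Set side by side, 25 genes rose in both the GABPA and the GABPB1/GABPB2 line, which is 86.2% of the 29 and 96.2% of the 26. Elovl6, Fasn, Scap and Srebf1 passed the test in the GABPA line without doing so in the GABPB1/GABPB2 line, and Acss2 did the reverse. Other settings called some of these genes higher in the GABPB1/GABPB2 line. Fasn passed there under DESeq2 (0.27, adjusted p = 0.0234) and in edgeR without the filter (0.24, adjusted p = 0.000438). Scap passed there in edgeR with a replicate block (0.24, adjusted p = 0.0495). The Acss2 call lay close to the threshold (adjusted p = 0.0457) and was lost under DESeq2 (adjusted p = 0.0833), without the filter (0.0973), with a replicate block (0.0559), with the libraries alone (0.123) and in 3 of 4 cases with a library left out (0.172 to 0.213), the exception being the second DMSO library. All 9 genes that rose in the GABPB1 line rose in the other lines as well. In 25 of the 33 genes the log2 fold change was largest in the GABPA line, next in the GABPB1/GABPB2 line and lowest in the GABPB1 line. The share of all genes with this order was not worked out. Calls over all genes followed the same order of lines, at 46.5%, 12.8% and 6.75% either way. As a description across 33 genes, which are not independent replicates, Pearson's r was 0.69 between the GABPA and GABPB1/GABPB2 lines, 0.57 between the GABPA and GABPB1 lines and 0.86 between the GABPB1/GABPB2 and GABPB1 lines. The 33 genes summed to 3282 and 2882 TPM after dTAG-13 and 2326 and 2323 TPM in DMSO in the GABPB1/GABPB2 line. In the GABPB1 line they summed to 2909 and 2751 TPM after dTAG-13 and 2429 and 2414 TPM in DMSO.

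The difference between responses was tested in the same fit. The lines did not have equal mRNA of the tagged genes in DMSO, as described below. The part of this in the differences was not tested. For the GABPA response minus the GABPB1 response, 18 of the 33 genes were higher and 1, Ebp, was lower, against 12.5% and 13.3% of all genes, or 25.7% either way. Scap responded by 0.97 in the GABPA line and 0.03 in the GABPB1 line (difference 0.94 ± 0.126, adjusted p = 2.75e-05). Hmgcs1 responded by 0.99 in the GABPA line and 0.16 in the GABPB1 line (difference 0.83 ± 0.112, adjusted p = 3e-05), and Stard4 by 1.08 and 0.31 in the same order of lines (difference 0.77 ± 0.124, adjusted p = 0.000156). These 3 had the largest differences.

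Fasn responded by 0.65 in the GABPA line and -0.01 in the GABPB1 line (difference 0.66 ± 0.125, adjusted p = 0.00077), and Lss, which folds squalene epoxide into lanosterol, by 0.89 in the GABPA line and 0.23 in the GABPB1 line (difference 0.65 ± 0.157, adjusted p = 0.0049). Differences for Fdft1, Sqle and Scd2 were 0.50 ± 0.0928, 0.52 ± 0.12 and 0.51 ± 0.12. Ebp fell by 0.51 in the GABPA line and had -0.08 in the GABPB1 line (difference -0.43 ± 0.118, adjusted p = 0.012). For Msmo1, which rose in both, the difference was 0.34 with a 95% interval of 0.06 to 0.62 and missed the threshold. For Mvk and Fdps it was 0.02 (-0.24 to 0.28) and 0.04 (-0.25 to 0.33). The 8 differences with the lowest adjusted p, those of Scap, Hmgcs1, Stard4, Fdft1, Fasn, Sqle, Scd2 and Lss, passed with any of the 8 libraries left out. The number of higher genes was 8 without the second dTAG-13 library of the GABPB1 line and 9 without any one of its other 3 libraries. It was 10 without the first DMSO library of the GABPA line and 9 without its second dTAG-13 library. Without the second DMSO or the first dTAG-13 library of the GABPA line the Ebp difference missed the threshold, with adjusted p of 0.0595 to 0.075, and without its second dTAG-13 library 2 genes were lower.

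For the GABPA response minus the GABPB1/GABPB2 response, 5 genes were higher and 1 lower, against 10.1% and 10.7% of all genes, or 20.7% either way. Scap responded by 0.97 in the GABPA line and 0.24 in the GABPB1/GABPB2 line (difference 0.73 ± 0.127, adjusted p = 0.000506), and Hmgcs1 by 0.99 in the GABPA line and 0.40 in the GABPB1/GABPB2 line (difference 0.58 ± 0.113, adjusted p = 0.0012). The others were Stard4 (difference 0.48 ± 0.128), Elovl6 (0.38 ± 0.102), Fasn (0.40 ± 0.125) and, as the lower one, Ebp (-0.43 ± 0.12). Scap and Hmgcs1 passed with any 1 of the 8 libraries left out. Without the first DMSO or the second dTAG-13 library of the GABPA line, 3 and 2 genes were higher. Without the first DMSO or the second dTAG-13 library of the GABPB1/GABPB2 line, also 3 and 2 were higher, and without the first dTAG-13 library of the GABPA line 11 were. The number of lower genes was 0 without the second DMSO or the first dTAG-13 library of the GABPA line. It was 3 without the second dTAG-13 library of the GABPA line and 2 without either the second DMSO or the second dTAG-13 library of the GABPB1/GABPB2 line. For Mvd, the decarboxylase that makes isopentenyl pyrophosphate, the difference missed the threshold at 0.15 with a 95% interval of -0.20 to 0.49, and for Dhcr7 0.11 (-0.20 to 0.41).

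For the GABPB1/GABPB2 response minus the GABPB1 response, edgeR called 0 of the 33 genes in either direction, against 0.0854% higher and 0.927% lower over all genes, or 1.01% either way. At an unadjusted p under 0.05, 12 were higher and 0 lower, and DESeq2 called 0 after adjustment. The median difference was 0.23 over the 33 genes and 0.00 over all genes, with values from -0.01 to 0.38, and the lowest adjusted p was 0.38. For Mvd the difference was 0.38 with a 95% interval of 0.03 to 0.73, and for Msmo1 0.04 with an interval of -0.25 to 0.33. Without the filter on low counts, Scd2 passed at 0.29.

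The 3 lines also differed without dTAG-13. In DMSO, the GABPB1 line had 11 of the 33 genes higher and 16 lower than the GABPA line, against 29.7% and 31.5% of all genes, and the GABPB1/GABPB2 line had 6 higher and 17 lower, against 31.6% and 30.4%. Both comparisons use the same GABPA-line DMSO libraries. The arms went apart: of the mevalonate arm 0 were higher and 5 of 7 lower in either line, while of the fatty acid arm 7 of 9 were higher in the GABPB1 line and 6 of 9 in the GABPB1/GABPB2 line, with 0 lower in both. From squalene to cholesterol 1 was higher and 10 lower in the GABPB1 line, and 0 were higher and 9 lower in the GABPB1/GABPB2 line. The shares of all genes called were 61.2% and 62.1%, so a call was common in these comparisons. Tag and line history cannot be told apart here. Gabpa mRNA in DMSO was at 48.9 and 46.4 CPM in the GABPA line. It was at 142 and 143 CPM in the GABPB1 line and 144 and 161 CPM in the GABPB1/GABPB2 line. Gabpb2 was at 44.9 and 49.7 CPM in the GABPB1/GABPB2 line, against 82.8 to 93.2 CPM in the other lines. Gabpb1 was lower in both lines with a Gabpb1 tag than in the GABPA line. GABP protein was not measured here, and the part of these levels was not tested.

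Msmo1 in DMSO was at 37.9 and 39.5 CPM in the GABPB1 line and 43.6 and 45.6 CPM in the GABPB1/GABPB2 line, against 96.8 and 108 CPM in the GABPA line (GABPB1 over GABPA -1.40 ± 0.097, adjusted p = 2.75e-09; GABPB1/GABPB2 over GABPA -1.20 ± 0.0974, adjusted p = 1.99e-08). Mvd was at 40.6 and 40.1 CPM in the GABPB1 line and 32.05 and 28.6 CPM in the GABPB1/GABPB2 line, against 93.6 and 117 CPM in the GABPA line (-1.38 ± 0.113 and -1.79 ± 0.117). Pmvk, phosphomevalonate kinase, was at 27.7 and 26.2 CPM in the GABPB1 line and 29.7 and 23.3 CPM in the GABPB1/GABPB2 line, against 53.6 and 56.7 CPM in the GABPA line (-1.03 ± 0.098 and -1.05 ± 0.0999). For these sterol enzymes every GABPA-line library was above all 4 others.

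Fasn stood the other way, at 1887 and 1883 CPM in the GABPB1 line and 1552 and 1485 CPM in the GABPB1/GABPB2 line, against 634 and 788 CPM in the GABPA line (1.41 ± 0.0902, adjusted p = 1.12e-09; 1.09 ± 0.0896, adjusted p = 2.18e-08). Elovl6, which lengthens palmitate, was at 266 and 264 CPM in the GABPB1 line and 313 and 359 CPM in the GABPB1/GABPB2 line, against 169 and 170.4 CPM in the GABPA line (0.64 ± 0.0723 and 0.98 ± 0.0726). In both genes the GABPA-line libraries were the lowest. Ebp was at 33.1 and 33.2 CPM in the GABPB1 line and 40.5 and 38.7 CPM in the GABPB1/GABPB2 line, against 59.1 and 66.9 CPM in the GABPA line (-0.93 ± 0.0827 and -0.67 ± 0.083).

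Of the control genes in DMSO, Scap was at 57.0 and 53.3 CPM in the GABPB1 line and 62.6 and 55.1 CPM in the GABPB1/GABPB2 line, against 77.3 and 77.3 CPM in the GABPA line (-0.49 ± 0.0901 and -0.39 ± 0.0908). Srebf2 was higher in the GABPB1 line (0.16 ± 0.0627, adjusted p = 0.0361) and lower in the GABPB1/GABPB2 line (-0.19 ± 0.063, adjusted p = 0.0172). The first of these calls was lost without the first DMSO library of either line and the second without the second DMSO library of the GABPA line. Srebf1 was higher in the GABPB1 line (0.47 ± 0.0711) and Insig1 lower in the GABPB1/GABPB2 line (-0.31 ± 0.114, adjusted p = 0.0252), a call lost without the second DMSO library of either line. Insig2 passed in neither. Without the second DMSO library of the GABPA line, 10 genes in place of 17 were lower in the GABPB1/GABPB2 line.

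Per length, the fatty acid arm summed to 1183 and 1168 TPM in the GABPB1 line and 1091 and 1113 TPM in the GABPB1/GABPB2 line, against 565 and 646 TPM in the GABPA line in DMSO. The arm from squalene to cholesterol summed to 353 and 355 TPM and to 377 and 372 TPM in the same 2 lines, against 387 and 440 TPM in the GABPA line. In DMSO the primitive endoderm and trophoblast markers summed to 78.8 to 80.4 TPM in the GABPB1 line, 31.2 to 32.5 TPM in the GABPB1/GABPB2 line and 16.0 to 18.2 TPM in the GABPA line, and the neural and mesendoderm markers to 129.6 to 130.5, 70.0 to 73.1 and 114.8 to 119.5 TPM in the same order. The fibroblast markers summed to 4.6 to 5.0, 8.2 to 8.9 and 3.7 TPM in that order, and 4 of 6 tested were higher and 0 lower in the GABPB1/GABPB2 line than in the GABPA line, against 1 higher and 1 lower in the GABPB1 line. Of 12 stem cell markers, 3 were higher and 6 lower in the GABPB1 line, and 3 higher and 7 lower in the GABPB1/GABPB2 line. The part of these markers in the differences was not tested.

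**Figure D3:**
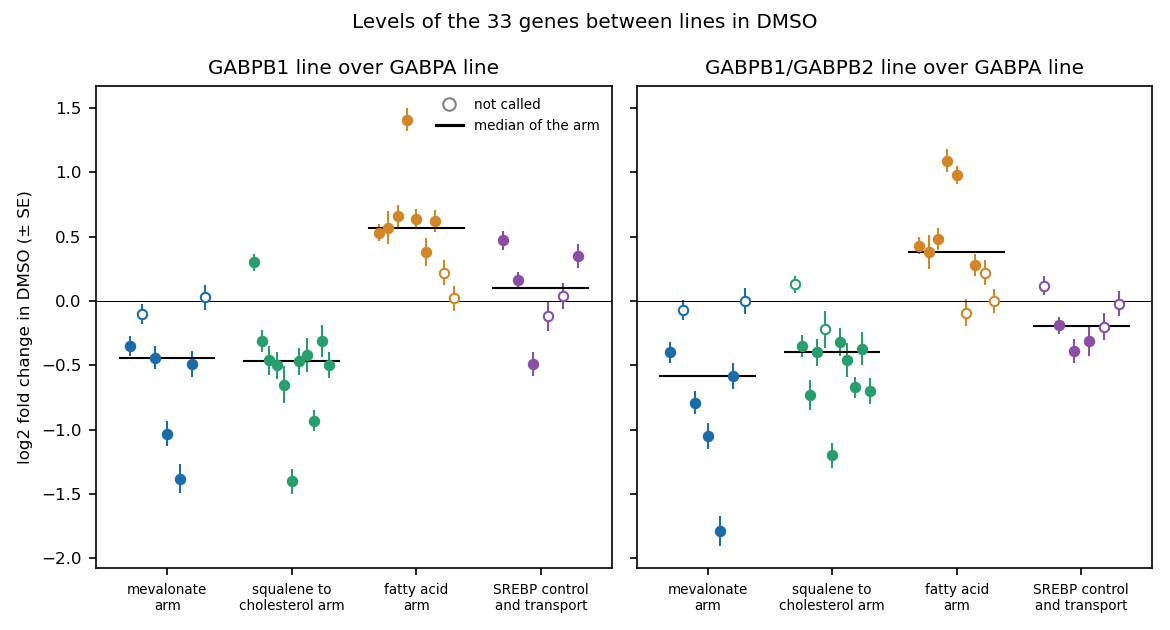
Log2 fold change between lines in DMSO for the 33 genes, GABPB1 line over GABPA line and GABPB1/GABPB2 line over GABPA line, by arm, with bars ± SE and a line at each arm's median. The medians of the fatty acid arm, 0.57 and 0.38, lie above 0, and those of the mevalonate arm, -0.44 and -0.58, below it, with single genes on the other side.

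New RNA in the GABPA line showed no call at 1, 2 or 4 h and many at 12 h. At 1 h edgeR called 0 of the 33 genes, against 0.0567% higher and 1.72% lower over all genes (1.78% either way), with 3 higher and 0 lower at an unadjusted p under 0.05 and 0 under DESeq2. At 2 h it called 0, against 0.145% and 3.21% of all genes (3.35% either way), with 4 higher and 0 lower unadjusted and 0 under DESeq2. At 4 h it called 0, against 0.113% and 3.91% (4.02% either way), with 5 higher and 0 lower unadjusted. DESeq2 called 1 at 4 h, Scd2 at 0.57, and edgeR with DESeq2's size factors called Scd2 at 0.57 and Idi1 at 0.68. Of all 15887 genes, 9 and 24 rose in these 2 settings. The medians over the 33 genes were 0.13, 0.14 and 0.20 at 1, 2 and 4 h, and over all genes 0.00, 0.01 and 0.02. The comparisons at 2 and 4 h use the same DMSO libraries, labelled as treated for 2 h. The unadjusted counts at these times have no share of all genes at the same threshold beside them.

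At these times the new-RNA level is given in CPM of converted reads. Hmgcs1 had the lowest adjusted p at 1 h, with 344 and 344 CPM after dTAG-13 and 247 and 245 CPM in DMSO (log2 fold change 0.48 ± 0.161, adjusted p = 0.178, 95% interval 0.15 to 0.82). At 2 h it was at 249.6 and 316 CPM after dTAG-13 and at 4 h at 307 and 266 CPM, against 193 and 230.0 CPM in DMSO (0.42 and 0.44, adjusted p = 0.199 and 0.157). Its groups did not overlap at any of these times. Idi1, the isomerase of isopentenyl pyrophosphate, was at 166 and 185 CPM at 2 h and 192 and 161 CPM at 4 h after dTAG-13, against 117 and 106 CPM in DMSO (log2 fold change 0.65 ± 0.19, adjusted p = 0.0608 at 2 h; log2 fold change 0.66 ± 0.193, adjusted p = 0.0553 at 4 h, 95% interval 0.26 to 1.06). Scd2 was at 239 and 263 CPM at 2 h and 297 and 282 CPM at 4 h after dTAG-13, against 199 and 197 CPM in DMSO (log2 fold change 0.55 ± 0.159, adjusted p = 0.0502 at 4 h). Its interval at 4 h was 0.22 to 0.88. The depth limits these times: a gene among the 33 had as few as 2 converted reads in a library at 1 h, where SEs ranged from 0.159 to 0.676. Both dTAG-13 libraries were above both DMSO libraries in 11, 12 and 13 genes at 1, 2 and 4 h, where 18.1%, 19.3% and 21.4% of all genes did so, and below in 4, 4 and 1, where 21.4%, 21.5% and 21.8% did.

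**Figure D4:**
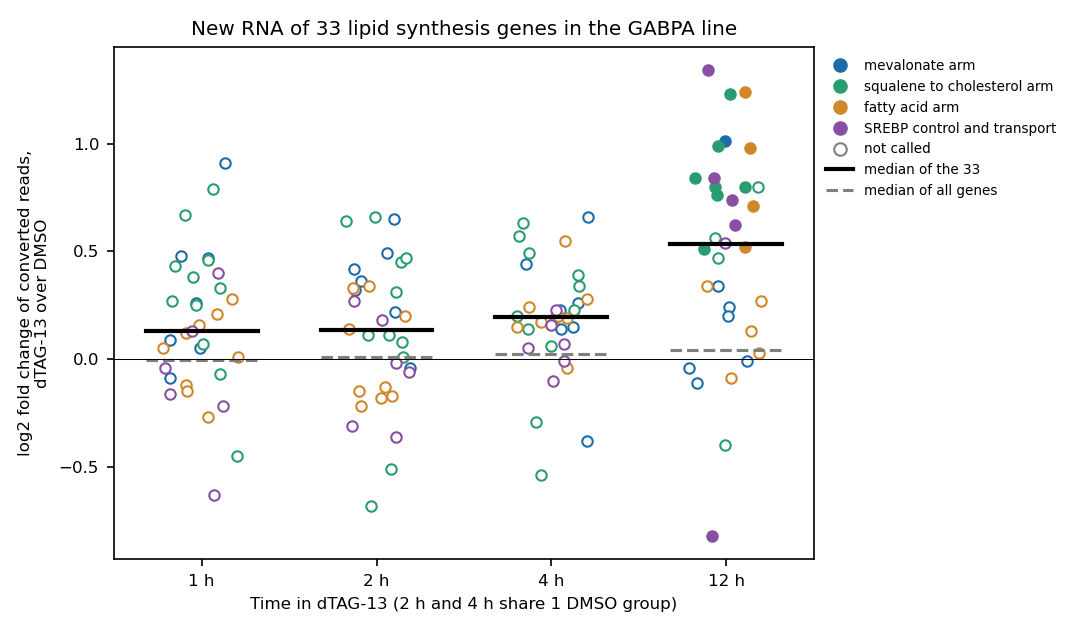
Log2 fold change of new RNA after dTAG-13 over DMSO at 1, 2, 4 and 12 h in the GABPA line, with a point for each of the 33 genes coloured by arm, the median of the 33 in black and the median of all genes as a dashed grey line. The black median stays between 0.13 and 0.20 up to 4 h and is 0.54 at 12 h.

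At 12 h, 16 of the 33 genes rose in new RNA and 1 fell, against 12.3% and 18.3% of all genes (30.6% either way), with medians of 0.54 and 0.04. Of the mevalonate arm 1 of 7 rose, Hmgcs1, while 7 of 11 rose from squalene to cholesterol, 4 of 6 for control and transport and 4 of 9 in the fatty acid arm. All 16 also rose in total RNA, where they are 55.2% of the 29. Hmgcs1 was at 420.0 and 451 CPM after dTAG-13 and 219 and 214 CPM in DMSO (log2 fold change 1.01 ± 0.153, adjusted p = 2.05e-05). Msmo1 was at 959 and 1070.4 CPM after dTAG-13 and 579.9 and 440.3 CPM in DMSO (log2 fold change 0.99 ± 0.154, adjusted p = 2.52e-05). Scd2 was at 490.3 and 634 CPM after dTAG-13 and 285 and 284 CPM in DMSO (log2 fold change 0.98 ± 0.152, adjusted p = 2.62e-05). In these 3 the lower dTAG-13 library was above the higher DMSO library.

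Scd1 was at 77.5 and 108 CPM after dTAG-13 and 37.9 and 39.7 CPM in DMSO (log2 fold change 1.24 ± 0.215, adjusted p = 9.8e-05), and Sqle at 271 and 238 CPM after dTAG-13 and 143 and 149 CPM in DMSO (log2 fold change 0.80 ± 0.153, adjusted p = 0.000274). Dhcr7 was at 39.0 and 62.9 CPM after dTAG-13 and 20.8 and 21.7 CPM in DMSO (log2 fold change 1.23 ± 0.279, adjusted p = 0.00164). Again the groups stood apart. Cyp51, lanosterol demethylase, was at 218 and 228 CPM after dTAG-13 and 151 and 111 CPM in DMSO (log2 fold change 0.76 ± 0.173, adjusted p = 0.00162), a call lost without the second DMSO library (adjusted p = 0.0554).

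Of the control genes in new RNA at 12 h, Scap was at 29.8 and 27.8 CPM after dTAG-13 and 9.70 and 13.1 CPM in DMSO (log2 fold change 1.34 ± 0.305, adjusted p = 0.00168), Insig1 at 251 and 294 CPM after dTAG-13 and 169.6 and 156 CPM in DMSO (log2 fold change 0.74 ± 0.171, adjusted p = 0.00191), and Srebf2 at 77.0 and 69.7 CPM after dTAG-13 and 38.8 and 43.3 CPM in DMSO (log2 fold change 0.84 ± 0.208, adjusted p = 0.00338). All 3 rose without overlap. Srebf1 was at 43.1 and 29.5 CPM after dTAG-13 and 26.8 and 24.4 CPM in DMSO (log2 fold change 0.54 ± 0.25, adjusted p = 0.108) and did not pass. Insig2, which did not pass in total RNA, fell in new RNA, with 33.0 and 26.1 CPM after dTAG-13 and 59.6 and 46.5 CPM in DMSO (log2 fold change -0.82 ± 0.23, adjusted p = 0.00907). That call was lost without the first DMSO or the second dTAG-13 library, with adjusted p of 0.0933 to 0.173. Without the second DMSO library, 9 of the 33 genes rose in place of 16.

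The 12 h dTAG-13 libraries of SLAM-seq stood apart from the others. They held 28702 and 26724 genes with at least 10 reads, against 20928 and 21240 in the 12 h DMSO libraries. The share of converted reads among those of the 33 genes was 20.9% and 23.1% after dTAG-13 and 16.9% and 17.2% in DMSO, while over all genes it was 13.8% and 12.1% after dTAG-13 and 14.1% and 13.99% in DMSO. When all reads were used in place of converted ones, 7 genes rose and 9 fell at 12 h, against 29.8% higher and 27.6% lower over 26957 genes, so that the counts were near or below the background. The median was 0.08 over the 33 genes, with values from -1.17 to 1.09, and 0.14 over all genes. Over the genes tested both ways, the median change of the fold change was -0.28. Scap (1.09), Dhcr7 (0.80), Hsd17b7 (0.53), Srebf2 (0.50), Acaca (0.47), Scd1 (0.47) and Scd2 (0.46) still passed as higher. Insig2 (-1.17) still passed as lower. Hmgcs1 was at 0.24, Msmo1 at 0.27 and Sqle at 0.08 without passing. Of genes called with converted reads, Fdft1 (-0.14) and Stard4 (-0.13) had the opposite sign. Of genes that rose in RNA-seq of this line, Acat2 (-0.80), Fdps (-0.65), Idi1 (-0.64), Mvk (-0.57), Acly (-0.50), Mvd (-0.46) and Pmvk (-0.46) fell with all SLAM-seq reads. The part of these library differences in the result was not tested.

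The response at 12 h was also set against that at 1 h. For the 12 h response minus the 1 h response, 2 of the 33 genes were higher and 0 lower. Over all genes 2.14% were higher and 4.7% lower (6.84% either way), so calls either way were no more common among the 33. At an unadjusted p under 0.05, 8 were higher and 0 lower. Under DESeq2 3 were higher, beside 255 of all 15887 genes. Scd1 responded by 1.24 at 12 h and -0.15 at 1 h (difference 1.38 ± 0.333, adjusted p = 0.0121), and Msmo1 by 0.99 at 12 h and 0.25 at 1 h (difference 0.74 ± 0.223, adjusted p = 0.0456). The call for Scd1 was lost without the second dTAG-13 library of 1 h, the first DMSO library of 12 h or the second dTAG-13 library of 12 h. The call for Msmo1 was lost in 6 of the 8 cases in which a library was left out, the exceptions being the first DMSO library of 12 h and the first dTAG-13 library of 12 h. For Hmgcs1 the difference was 0.52 with a 95% interval of 0.07 to 0.98.

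**Figure D5:**
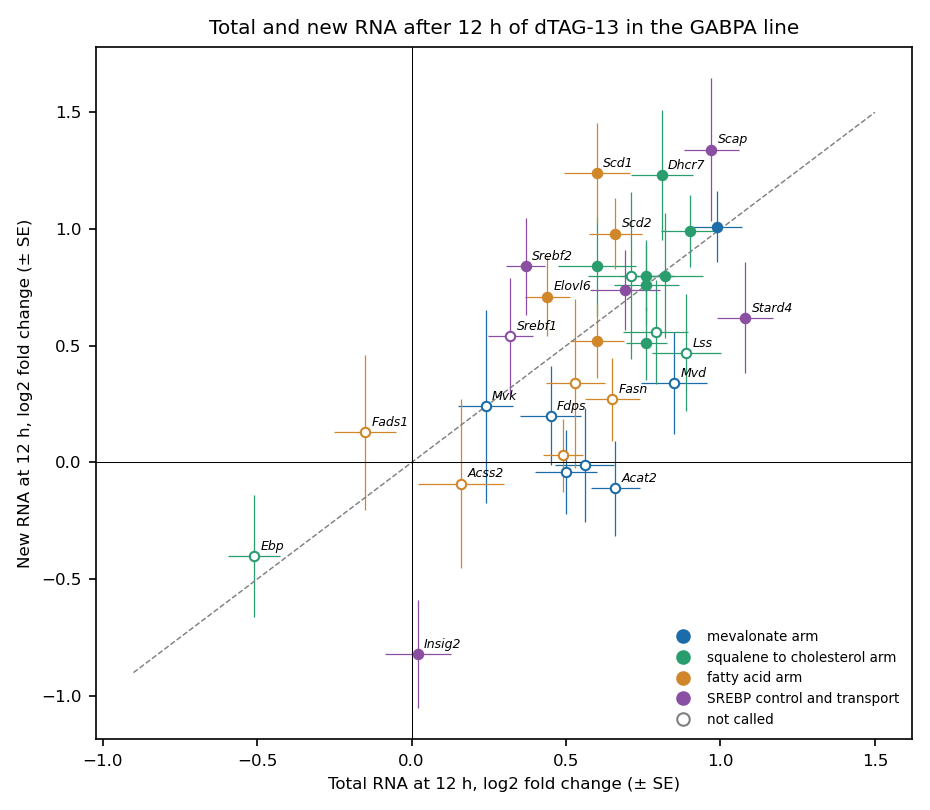
Log2 fold change of total RNA (horizontal) and of new RNA (vertical) after 12 h of dTAG-13 over DMSO in the GABPA line for the 33 genes, with bars ± SE, a dashed line of equality and filled points where new RNA passed the test. Scd1 lies above the line at 0.60 in total and 1.24 in new RNA, and Idi1 below it at 0.50 in total and -0.04 in new RNA.

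Across the 33 genes, Pearson's r between total and new RNA at 12 h was 0.66 and Spearman's rho 0.59, as a description over genes that share libraries. The genes of the mevalonate arm other than Hmgcs1 had new-RNA values from -0.11 (Acat2) to 0.34 (Mvd), none of them called, beside total-RNA values of 0.24 (Mvk) to 0.85 (Mvd).

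Other genes of lipid metabolism were read from lists outside the 33. Their counts stand beside shares over all genes of 24.6% higher and 21.9% lower in the GABPA line, 3.53% and 9.26% in the GABPB1/GABPB2 line, and 1.28% and 5.46% in the GABPB1 line. Of 18 further sterol genes, 7 rose and 3 fell in total RNA of the GABPA line, 2 rose and 3 fell in the GABPB1/GABPB2 line, and 1 rose and 2 fell in the GABPB1 line. In the GABPA line the list's median was 0.11, against 0.06 over all genes. Nr1h2, which encodes the sterol sensor LXR beta, fell by 2.52 in the GABPA line (SE 0.0942, adjusted p = 1.63e-12), by 1.28 in the GABPB1/GABPB2 line and by 0.60 in the GABPB1 line. Stard3, a cholesterol carrier of late endosomes, fell by 1.26 in the GABPA line (SE 0.106, adjusted p = 3.87e-08), by 0.56 in the GABPB1/GABPB2 line and by 0.48 in the GABPB1 line. Both fell in new RNA at 12 h as well, Nr1h2 by 1.35 and Stard3 by 1.70. Aacs, which activates acetoacetate for lipid synthesis, rose in the GABPA line (0.90 ± 0.0816) and did not pass in the others.

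Of 13 further SREBP regulators that matched, 4 rose and 1 fell in the GABPA line, 0 rose and 1 fell in the GABPB1/GABPB2 line, and edgeR called 0 in the GABPB1 line. In the GABPA line the median of this list was 0.06, as over all genes. Fbxw7, a ubiquitin ligase subunit that acts on nuclear SREBP, rose by 1.26 ± 0.077 in the GABPA line and by 0.83 ± 0.186 in its new RNA at 12 h. Of 22 further genes of fatty acid synthesis and acyl-CoA, 10 rose and 3 fell in the GABPA line, 3 rose and 0 fell in the GABPB1/GABPB2 line, and edgeR called 0 in the GABPB1 line. The median in the GABPA line was 0.24. Lpin1, a phosphatidate phosphatase, rose by 1.94 ± 0.0901 in the GABPA line and 0.50 ± 0.0872 in the GABPB1/GABPB2 line. Elovl1, an elongase of very long chains, fell by 0.94 in the GABPA line (SE 0.102).

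Of 18 genes of fatty acid oxidation, 10 rose and 1 fell in the GABPA line, 2 rose and 1 fell in the GABPB1/GABPB2 line and 1 rose in the GABPB1 line, with a median of 0.23 in the GABPA line. Cpt1c, a carnitine palmitoyltransferase family member, was the gene of this list that rose in all 3 lines, by 1.61 ± 0.0851 in the GABPA line, 0.43 ± 0.0872 in the GABPB1/GABPB2 line and 0.35 ± 0.0823 in the GABPB1 line. Decr1, a mitochondrial dienoyl-CoA reductase, fell by 1.40 in the GABPA line (SE 0.19) and by 0.65 in the GABPB1/GABPB2 line (SE 0.17). In new RNA at 12 h, 3 of 18 sterol genes rose and 2 fell, 4 of 13 regulators rose, 4 of 20 tested fatty acid genes rose and 1 fell, and 2 of 18 oxidation genes rose, against 12.3% higher and 18.3% lower over all genes. The medians of these lists in new RNA were 0.13, 0.38, 0.37 and -0.15, against 0.04 over all genes. At 1, 2 and 4 h edgeR called 0 of these 4 lists.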

How the data were processed

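RNA-seq and SLAM-seq libraries of tagged mouse embryonic stem cells were used, 12 and 14 in number, with 2 per group. For RNA-seq the authors deposited RSEM expected counts and TPM per gene. For SLAM-seq the deposited tables hold counts per feature of all reads and of reads with T-to-C conversions, made with slamdunk 0.4.3 per the file headers. The submitters' processing notes name the build mm39 and list, among other tools, STAR 2.7.11a, RSEM 1.3.1, cutadapt 3.5 and Trim Galore 0.6.7, without saying which step used which. How strand was handled is not stated there. The TPM values, the authors' own per length, served for levels only.

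Expected counts were rounded to whole numbers. Each assay had a single fit in edgeR 4.0.16 (R 4.3.3, limma 3.58.1) with a mean for each group, TMM scaling and a filter on low counts (minimum count 10, minimum total 15). Genes were called at an adjusted p under 0.05 by edgeR's quasi-likelihood test, with the Benjamini-Hochberg method applied to every gene of the assay, and the SE was taken from the F statistic (the size of the log2 value over its root). Bars and intervals at 95% rest on 6 residual degrees of freedom in RNA-seq and 7 in SLAM-seq before the tool shares information between genes. CPM values use the TMM-scaled library sizes. The steps were checked on simulated data. Nothing in the labels says how the duplicates were cultured beyond being biological, so p-values measure the spread between these samples.

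The 33 genes and all lists were chosen with earlier results of these data known. Genes given in full were those called with a log2 fold change of at least 0.4 in size, or 1 of 5 control genes (Srebf1, Srebf2, Scap, Insig1 and Insig2), up to 12 per comparison by smallest p. For differences between the responses of lines or times every called gene was named and up to 8 given in full. Between lines in DMSO the called genes were counted by arm and only some were named. Others, such as Ebp, Fasn and Mvk in the GABPA line, were chosen after their values were seen. Alternatives were DESeq2 1.42.0, its size factors in edgeR, no filter, the libraries of a comparison alone, a replicate block, each library left out, and all SLAM-seq reads.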

Additional observations from a re-analysis of the deposited data

Results flagged for a closer look

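The response to 12 h of dTAG-13 in total RNA differed between lines by a test of the difference itself, in edgeR's quasi-likelihood fit, for these genes. The log2 response in the GABPA line was larger than that in the GABPB1 line for Hmgcs1 (0.83), Mvd (0.53), Fdft1 (0.50), Sqle (0.52), Lss (0.65), Cyp51 (0.51), Nsdhl (0.43), Dhcr7 (0.42), Acat2 (0.39), Insig1 (0.51), Srebf1 (0.29), Scap (0.94), Fasn (0.66), Acaca (0.47), Acly (0.37), Scd2 (0.51), Elovl6 (0.37) and Stard4 (0.77), and lower for Ebp (-0.43). It was larger than that in the GABPB1/GABPB2 line for Hmgcs1 (0.58), Scap (0.73), Fasn (0.40), Elovl6 (0.38) and Stard4 (0.48), and lower for Ebp (-0.43). Scap and Hmgcs1 had the largest differences in both comparisons, and Ebp was lower in both. The lines also differed in mRNA of the tagged genes in DMSO, and the part of this was not tested.

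In new RNA of the GABPA line, the log2 response at 12 h exceeded that at 1 h by the same kind of test for Msmo1 (0.74) and Scd1 (1.38). Part of these differences missed the threshold when 1 library was left out: 11 of 19 between the GABPA and GABPB1 lines, 4 of 6 between the GABPA and GABPB1/GABPB2 lines, and both between 12 and 1 h.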

How the results depend on the processing

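Of 4586 recomputed values for single genes and comparisons, 4273 kept their call or stayed uncalled, 214 lost a call, 92 gained one and 7 turned. A value turned where a called gene changed sign or an uncalled gene was called the other way. Genes called in neither fit were not checked for sign, so changes of sign among them are not in the 7. Nsdhl, at -0.12 with all reads at 12 h, is one such gene. All 7 turned when all SLAM-seq reads replaced converted ones: at 12 h Mvk was at -0.57, Mvd at -0.46, Fdps at -0.65, Fdft1 at -0.14, Acly at -0.50 and Stard4 at -0.13, and the 12 h minus 1 h value of Ebp was -0.99. With all reads 7 genes rose and 9 fell at 12 h (29.8% and 27.6% of all genes), and in the 12 h minus 1 h difference 1 was higher and 4 lower (16.1% and 20.2% of all genes). In the GABPB1 line 14 genes rose without the filter, beside 278 of all 30622 genes. With its libraries alone 26 rose, beside 1240 of 15696. In the GABPA minus GABPB1 difference 2 were lower without the filter and 2 with those libraries alone. In the GABPA minus GABPB1/GABPB2 difference 2 were lower without the filter and 2 higher with the libraries alone, and in the GABPB1/GABPB2 minus GABPB1 difference 1 was higher without the filter. At 4 h 1 rose under DESeq2 and 2 with its size factors. The causes were not tested.

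With 1 library left out, the genes that rose numbered 28 in each case in the GABPA line (1 fell in each), 1 in each case in the GABPB1 line and 15 to 25 in the GABPB1/GABPB2 line. The genes higher in the GABPA minus GABPB1 difference numbered 8 to 23 and those lower 0 to 2. In the GABPA minus GABPB1/GABPB2 difference they numbered 2 to 11 and 0 to 3. In DMSO, 8 to 12 were higher and 12 to 15 lower in the GABPB1 line than in the GABPA line, and 4 to 7 higher and 10 to 18 lower in the GABPB1/GABPB2 line. In new RNA at 12 h 9 to 16 rose and 0 to 1 fell, and 0 to 3 were higher in the 12 h minus 1 h difference. Where a group is left with 1 library, that library is assumed to vary like the others. With a library of the GABPB1 line or of the 12 h SLAM-seq groups left out, fewer of all genes rose as well than in the full fit.

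No label says that equal replicate numbers mark a shared culture, and with 2 libraries a group they were not taken as pairs. Deviations from group means correlated at -0.219 to 0.389 in RNA-seq and -0.113 to 0.383 in SLAM-seq, where dTAG-13 and its DMSO group gave -0.019 at 1 h, 0.383 at 2 h, 0.154 at 4 h and 0.135 at 12 h. With a replicate block, 7 genes rose in the GABPB1 line, 17 were higher in the GABPA minus GABPB1 difference and 6 in the GABPA minus GABPB1/GABPB2 difference, and the other counts were as without it. Crossing the numbers of the GABPB1/GABPB2 DMSO libraries, chosen after seeing the data, left 6 higher and 17 lower than in the GABPA line. The few converted reads of SLAM-seq at 1 h limit which changes could be detected.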

Other observations

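The share of converted reads differed widely between the 33 genes. At 1 h in DMSO it was highest for Hsd17b7 (20.1%), Acaca (16.7%) and Elovl6 (14.6%), and lowest for Pmvk (1.36%), Mvk (1.57%) and Mvd (2.03%). The intervals listed with these counts span whole genes, 271980 bases for Acaca and 106141 for Elovl6, so reads of introns may be included. At 12 h it was 38.7% after dTAG-13 and 30.6% in DMSO for Msmo1, 37.7% after dTAG-13 and 28.7% in DMSO for Sqle, and 30.2% after dTAG-13 and 22.9% in DMSO for Hmgcs1. For Insig2 it was 34.8% after dTAG-13 and 34.1% in DMSO. It was higher after dTAG-13 than in DMSO for 24 of the 33 genes and lower for 8, among them Srebf1 (29.6% after dTAG-13 and 36.3% in DMSO), Acaca (21.2% and 25.7% in the same order), Hsd17b7 (36.9% and 39.0%) and Fasn (6.69% and 8.21%).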
